A study of Mus musculus with 8 samples.

Results

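Superoxide dismutases and catalase were described here as 5 genes, namely Sod1, Sod2, Sod3, Ccs and Cat, chosen by name as the 3 mouse superoxide dismutases, the copper chaperone of the first and the main catalase. These 5 of 55450 annotated genes were read in RNA-seq of cultured primary mouse hepatocytes. All cells came from C57BL/6 mice at post-natal week 8, and all mice carried Slc39a8(F/F), that is, loxP-flanked alleles of the gene for ZIP8, a transporter of manganese, zinc, iron and selenite. Mice without Cre are called WT, and Alb-cre(+/+);Slc39a8(F/F) mice are called LSKO. The albumin promoter drives Cre in hepatocytes, so other liver cells that remain in a culture keep the gene. Untreated cells gave 2 WT and 2 LSKO libraries. LSKO cells kept for 24 h in serum-free medium with 2 µM manganese chloride, ferrous chloride, sodium selenite or zinc chloride gave 1 library each. The medium of all cultures held dexamethasone. The sources do not tie libraries to animals, so the p-values below measure the spread between these libraries, which may be technical.

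Superoxide dismutases turn superoxide, a by-product of respiration and of several oxidases, into hydrogen peroxide and oxygen. SOD1 uses copper and zinc and sits mostly in the cytosol. It receives its copper from CCS, the copper chaperone for superoxide dismutase. SOD2 uses manganese and sits in the mitochondrial matrix, and SOD3 is a secreted copper and zinc enzyme of the extracellular matrix. Catalase, a heme enzyme that hepatocyte peroxisomes hold in large amounts, breaks hydrogen peroxide down to water and oxygen. The metals that were added thus include the manganese of SOD2, the zinc of SOD1 and SOD3 and the iron of catalase, but not copper.

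Against untreated LSKO cells, Sod2 was 1.72-fold and Sod1 1.50-fold higher in the selenite library, where 17.6% of all genes tested were called, while Ccs and Cat passed the test in no comparison. Sod3 was near the lower end of what was detected, and it was lower with iron, where a single read was counted. The Sod2 difference was called in all 16 settings tried, which share the 1 selenite library and of which not all could lose a call. The Sod1 difference fell to 0.15 on the log2 scale after correction for transcript length and GC content.

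All positions are in GRCm38. Sod1 (ENSMUSG00000022982) lies on chromosome 16 at 90220754 to 90226329, plus strand, and its principal transcript of 641 bases is the shortest of the 5. Sod2 (ENSMUSG00000006818) lies on chromosome 17 at 13006846 to 13040063, plus strand, with a transcript of 5861 bases. Sod3 (ENSMUSG00000072941) lies on chromosome 5 at 52363791 to 52371418, plus strand, with a transcript of 3738 bases. Ccs (ENSMUSG00000034108) lies on chromosome 19 at 4825366 to 4839332, minus strand, with a transcript of 1067 bases. Cat (ENSMUSG00000027187) lies on chromosome 2 at 103453849 to 103485160, minus strand, with a transcript of 2613 bases. No exon of the 5 genes overlapped an exon of another gene on either strand, so they share no annotated exon with a neighbour.

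The start-site sequences of Sod1, Sod2 and Cat are shown because the first 2 were called in the selenite library and Cat was not. The Sod1 call was lost with the length and GC correction. The sequences are RefSeq promoters on GRCm38.p6, each 300 bases long and printed 5′ to 3′ on the gene's own strand. The Sod2 window begins at 13007589, inside the gene interval given above, so its RefSeq start is not the first base of that interval. Capitals mark GC boxes, the letters GGGCGG on either strand, to which factors such as SP1 can bind. RefSeq entries matched 3 of the 5 genes, and Ccs and Sod3 are named only.
Sod1, chr16:90220512-90220811, plus strand: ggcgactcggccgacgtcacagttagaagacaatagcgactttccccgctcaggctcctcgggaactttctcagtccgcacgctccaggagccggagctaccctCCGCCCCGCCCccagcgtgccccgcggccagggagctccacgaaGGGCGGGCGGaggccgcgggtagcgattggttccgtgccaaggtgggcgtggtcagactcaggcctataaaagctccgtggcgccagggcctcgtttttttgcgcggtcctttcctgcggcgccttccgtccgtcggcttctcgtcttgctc
Sod2, chr17:13007589-13007888, plus strand: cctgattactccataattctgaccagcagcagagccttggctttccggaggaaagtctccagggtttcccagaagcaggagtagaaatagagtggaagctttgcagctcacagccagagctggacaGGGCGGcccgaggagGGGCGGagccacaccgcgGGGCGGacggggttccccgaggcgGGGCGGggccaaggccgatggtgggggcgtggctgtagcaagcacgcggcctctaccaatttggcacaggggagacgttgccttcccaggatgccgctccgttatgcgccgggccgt
Cat, chr2:103485104-103485403, minus strand: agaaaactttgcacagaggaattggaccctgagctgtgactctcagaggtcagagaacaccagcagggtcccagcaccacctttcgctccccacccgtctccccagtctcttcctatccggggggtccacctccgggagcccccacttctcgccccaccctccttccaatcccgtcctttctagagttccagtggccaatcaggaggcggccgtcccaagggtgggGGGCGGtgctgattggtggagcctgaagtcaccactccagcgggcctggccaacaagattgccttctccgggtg
The Sod1 and Sod2 windows held 4 GC boxes each, and in Sod1 they overlap in 2 pairs. The Cat window held 1 GC box. CCAAT boxes (letters CCAAT, either strand) numbered 4 in Cat, 1 in Sod1 and 1 in Sod2. Of 32851 RefSeq promoters of this length, 35.7% held a GC box and 37.4% a CCAAT box. The Sod1 window also held TATAAA, 37 bases before the start, which 13.6% of all promoters held on either strand. An antioxidant response element core (TGACNNNGC) was found in the Sod1 window, on the minus strand and 56 bases before the start, and in 12.4% of all promoters. Neither form of the metal response element core (TGCACNC, in 12.6% of promoters, or TGCGCNC, in 15.4%, both strands searched) was in the 3 windows. These matches describe letters and not binding.

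Reads assigned to genes ranged from 19943899 to 27731054 per library. Slc39a8, the deleted gene, was at 12.7 and 15.5 normalized CPM (counts scaled to library size after trimmed mean of M values) in WT replicates 1 and 2, at 8.15 and 1.88 in LSKO replicates 1 and 2, and at 1.48 to 3.18 in the 4 metal libraries, so LSKO replicate 1 lay between WT and the other LSKO libraries. The libraries fall into 2 kinds by their alignment summaries. Those of WT and of cells given iron, selenite or zinc list 592678 to 680199 low-quality reads and 4.12 to 4.94% of reads not aligned, whereas both untreated LSKO libraries and the manganese library list 0 to 62 such reads and 8.79 to 10.0% not aligned. Effects of knockout, iron, selenite or zinc against untreated LSKO cells and effects of this difference cannot be told apart, so the iron, selenite and zinc libraries were also compared with WT and with each other. In the manganese library 72.2% of reads fell in genes, against 39.3 to 42.1% in the other 7, which touches counts of genes with an exon on the opposite strand. In the summed level of 8 hepatocyte markers, from Alb to Cyp2e1, WT replicates had 20243 and 19218 CPM, LSKO replicates 28027 and 35624, and the manganese, iron, selenite and zinc libraries 41405, 29997, 48429 and 35142. In a bulk culture, fewer cells of a type and less RNA per cell cannot be told apart.

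Per kilobase of principal transcript, Sod1 had the highest level of the 5 genes, with 458 to 950 normalized CPM per kb over the 8 libraries. Cat followed with 259 to 299, Ccs with 31.3 to 40.1, Sod2 with 14.3 to 29.5 and Sod3 with 0.013 to 0.283. The order rests on the length used, and which transcripts the cells held was not tested. Divided by the length of all annotated exons joined, Sod1 came to 74.0 to 153 normalized CPM per kb, below Cat, which stayed at 259 to 299, since its annotated exons are those of 1 transcript. Between libraries Sod1 varied 2.07-fold from lowest to highest and Sod2 2.06-fold, while Ccs varied 1.28-fold and Cat 1.16-fold. All 5 genes passed the minimum of 80 reads summed over the libraries. Sod3 did so with 137 reads in all, against 7097 to 134379 for the other 4.

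**Figure D1:**
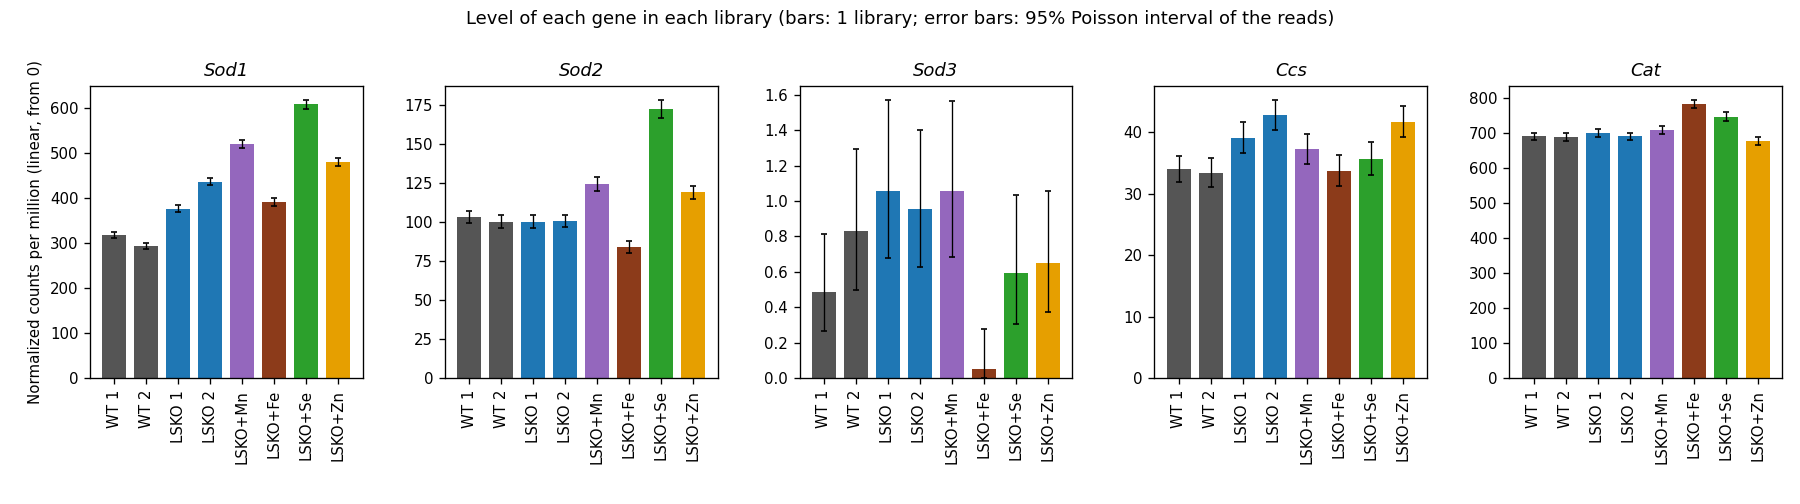
Normalized CPM (y axis, linear from 0) of each gene in each of the 8 libraries (x axis), with 95% Poisson intervals that cover counting error only. The selenite bar is the highest for Sod1 at 609 and for Sod2 at 173, the iron bar is near 0 for Sod3, and the bars of Cat lie between 677 and 782.

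Sod1, the cytosolic copper and zinc enzyme, was at 319 and 294 normalized CPM in the WT replicates, with 9191 and 6735 reads. It was at 376 and 437 in LSKO replicates 1 and 2. Among the metal libraries, iron had 392, zinc 481, manganese 520 and selenite 609. All 6 LSKO libraries lay above both WT libraries, and the iron library lay between the untreated LSKO replicates. The order from WT, iron and untreated LSKO up to zinc, manganese and selenite had neighbours that could not be separated: the 95% interval of the difference held 0 between LSKO and iron, between manganese and zinc, and between selenite and manganese. Ranked by Sod1 and by the hepatocyte marker sums given above, the libraries had the same order, except that the zinc library and LSKO replicate 2 changed places. Those sums are mostly Alb, with a mean of 29056.5 CPM, and the 8 markers did not move together. With selenite against untreated LSKO cells 4 of them were called higher, while Hnf4a was at 0.00 and Cps1 at -0.02 on the log2 scale. With manganese 1 was called higher, and Cps1 was called lower at -1.08. The part of cell composition in the Sod1 differences was not tested.

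Sod2, the manganese enzyme of mitochondria, was at 103 and 100 normalized CPM in WT replicates 1 and 2 and at 100 and 101 in the LSKO replicates. Iron gave 84.0, zinc 119, manganese 124 and selenite 173. The 4 untreated libraries lay between 100 and 103, the selenite library lay far above all others and the iron library lay below all others. In the order of groups, WT and LSKO could not be separated, nor could zinc and manganese, and every other pair of neighbours had an interval that left out 0.

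Ccs, which loads copper onto SOD1, ranged from 33.4 to 42.8 normalized CPM. The WT replicates were at 34.0 and 33.4, the LSKO replicates at 39.1 and 42.8, and the manganese, iron, selenite and zinc libraries at 37.2, 33.7, 35.7 and 41.7. No neighbouring pair of groups differed beyond its interval. For pairs further apart, the unadjusted interval left out 0 between LSKO and WT, iron and LSKO, zinc and WT, and zinc and iron. Cat was at 690 and 688 normalized CPM in the WT replicates and at 699 and 690 in the LSKO replicates. Zinc gave 677, manganese 707, selenite 746 and iron 782, again with no neighbouring pair that could be separated.

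Sod3, the secreted enzyme, gave 14 and 19 reads in the WT replicates, 24 and 26 in the LSKO replicates, 25 with manganese, 16 with zinc, 12 with selenite and 1 with iron. As normalized CPM these were 0.486 and 0.829 in WT, 1.06 and 0.956 in LSKO, 1.06 with manganese, 0.652 with zinc, 0.593 with selenite and 0.050 with iron. The iron library was the lowest, and its counting interval, 0.001 to 0.278, overlapped that of WT replicate 1, from 0.266 to 0.815, and lay below those of the other 6 libraries.

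The first comparison asked what the loss of Slc39a8 did in untreated cells. A gene was called when it passed 2 limits, an adjusted p below 0.05 (edgeR quasi-likelihood test, Benjamini-Hochberg over 15468 genes) and a difference of more than 0.5 on the log2 scale. None of the 5 genes was called, while 10.4% of all genes tested were. At an unadjusted p under 0.05, Sod1 and Ccs passed, and DESeq2 also called none. Sod1 was 406.8 ± 42.8 normalized CPM in LSKO against 306.4 ± 17.7 in WT (mean ± SD, n = 2 each), a log2 fold change of 0.41 ± 0.09 (SE) with adjusted p = 0.0114, below the fold limit. Without LSKO replicate 1 it was 0.54 and passed both limits. For Ccs the log2 fold change was 0.28 ± 0.09 (SE) with adjusted p = 0.0669. Cat was 694 ± 6.93 against 689 ± 1.17 (SD, n = 2 each), and its 95% interval ran from -0.15 to 0.17 on the log2 scale. That of Sod2 ran from -0.18 to 0.14. Differences larger than these bounds were thus not found in the manganese enzyme or in catalase, although 1 untreated LSKO library kept part of the Slc39a8 reads.

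Selenite, a form of selenium from which cells can make selenoproteins such as the glutathione peroxidases, was set against untreated LSKO cells. Here 2 of the 5 genes were called, both higher, where 7.89% of all genes tested were called higher and 9.67% lower, the 17.6% given above. Sod2 was at 173 normalized CPM against 101 ± 0.427 (SD, n = 2), a log2 fold change of 0.78 ± 0.09 (SE) with adjusted p = 0.000232. Sod1 was at 609 against 406.8 ± 42.8, a log2 fold change of 0.58 ± 0.11 (SE) with adjusted p = 0.00352. Ccs had -0.20 ± 0.12 (SE) and Cat 0.10 ± 0.09 (SE), and neither passed. For Sod3 the estimate was -0.76 with a 95% interval from -2.06 to 0.54, which holds 0 as well as a large fall, so no difference was detectable at this depth.

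The selenite library differed from the rest in how counts relate to transcript length and GC content. Fitted over genes of at least 2 log2 CPM, this relation predicted a shift of 0.50 on the log2 scale for a transcript as short as that of Sod1 in the selenite library, of 0.24 in the zinc library and of -0.18 in the manganese library. With the correction, the selenite difference of Sod1 was 0.15 with adjusted p = 0.269. That of Sod2, whose principal transcript is long, was 0.82 with adjusted p = 0.000337. The correction used 1 annotated transcript per gene, and which transcripts the cells held was not tested. The Sod1 call was also lost without LSKO replicate 1, where the log2 fold change was 0.43.

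**Figure D2:**
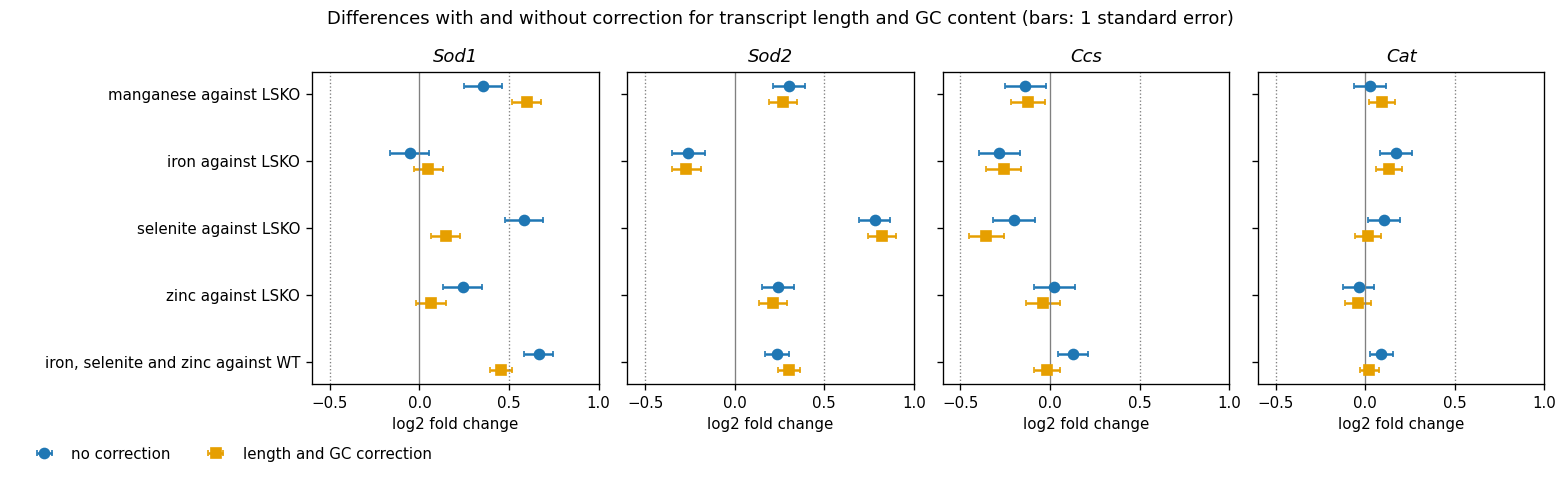
Log2 fold change (x axis) of Sod1, Sod2, Ccs and Cat in 5 comparisons (y axis) without (circles) and with (squares) correction for transcript length and GC content, with bars of 1 SE. For Sod1 the selenite value moves from 0.58 to 0.15 and the manganese value from 0.35 to 0.60, while for Sod2 the selenite value moves from 0.78 to 0.82.

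Among the 3 metal libraries with alike alignment summaries, selenite was compared with the mean of iron and zinc. Of the 5 genes, 1 was called where 15.9% of all genes were. Sod2 had a log2 fold change of 0.79 ± 0.09 (SE) with adjusted p = 0.000915, and its 173 normalized CPM stood above both the 84.0 with iron and the 119 with zinc. Sod1 had 0.49 ± 0.11 (SE) with adjusted p = 0.00943, just under the fold limit, and 0.09 with the length and GC correction. The same 3 libraries were set against WT as well, where 1 of the 5 genes was called against 14.0% of all genes. Sod1 was higher by 0.67 ± 0.08 (SE) on the log2 scale with adjusted p = 0.000352, and each of the 3 libraries lay above both WT libraries. The corrected value was 0.46 with adjusted p = 0.00166, below the fold limit. Sod2 had 0.24 ± 0.07 (SE) with adjusted p = 0.0242, with the iron library below WT and the other two above it. These comparisons share libraries with one another and are not independent.

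Iron, which catalase carries in its heme and the 3 dismutases do not use, was set against untreated LSKO cells. Of the 5 genes, 1 was called where 8.70% of all genes were, and it was not Cat. The log2 fold change of Cat was 0.17 ± 0.09 (SE) with adjusted p = 0.227, and 782 normalized CPM was the highest level of Cat in the 8 libraries. Sod2 had -0.26 ± 0.09 (SE) with adjusted p = 0.0882 and Sod1 -0.05 ± 0.11 (SE). Ccs had -0.28 ± 0.12 (SE) with adjusted p = 0.138. At an unadjusted p under 0.05, Sod2, Sod3 and Ccs passed. Against selenite and zinc, 2 of the 5 genes were called where 18.1% of all genes were, both lower. Sod2 was lower by 0.77 ± 0.09 (SE) on the log2 scale with adjusted p = 0.000482. The other was Sod3. Sod1 had -0.46 ± 0.11 (SE) with adjusted p = 0.0121 and stayed within the fold limit. Over the other settings its value ran from -0.47 to -0.06.

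Sod3 had 1 read in the iron library, where the rate in untreated LSKO cells would give 20.1. The ratio of rates was 0.050, with an exact 95% interval for counting error alone from 0.001 to 0.290. The fitted log2 fold change, which depends on the prior count, was -4.20 ± 0.98 (SE) with adjusted p = 0.0200, and -3.51 ± 1.05 (SE) with adjusted p = 0.0320 against selenite and zinc. DESeq2 gave adjusted p = 0.150 and 0.177 for these and called neither. Marker sums of stellate cells and fibroblasts, of endothelium and of cholangiocytes were lowest in the same library. That of 7 Kupffer cell and macrophage markers was not, at 320 CPM against 244 and 276 in untreated LSKO cells. Cd68 held 263 CPM of it, while Clec4f and Vsig4 were lower by 1.36 and 1.44 on the log2 scale. The summed level of 7 stellate cell and fibroblast markers was 6.08 CPM in the iron library and 12.5 to 31.1 in the other 7, and that of 6 endothelial markers was 76.5 against 94.6 to 183. No marker of either list was at 0 in the iron library, where Acta2, the smooth muscle actin of activated stellate cells, had 8 reads, and Clec4g and Kdr, both of sinusoidal endothelium, had 7 and 34. The part of such cells in the Sod3 result was not tested.

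Zinc, the structural metal of SOD1 and SOD3, gave no call among the 5 genes against untreated LSKO cells, where 4.45% of all genes were called. Sod1 had a log2 fold change of 0.24 with a 95% interval from 0.00 to 0.48, and Sod2 0.24 with an interval from 0.05 to 0.44. Their adjusted p values were 0.264 and 0.168. At an unadjusted p under 0.05 both passed, and DESeq2 called none of the 5. Against iron and selenite none of the 5 was called either, where 0.524% of all genes were. There Ccs had 0.27 ± 0.11 (SE) and Sod3 1.86 ± 0.78 (SE), each with an unadjusted p under 0.05, and DESeq2 called none. The Sod3 value rests on the single read with iron, since zinc differed from selenite by 0.14 with a 95% interval from -1.40 to 1.68.

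Manganese, the cofactor of SOD2, gave no call among the 5 genes, where 17.2% of all genes were called, and where 1.37% were among the 9900 genes with no exon of another gene on the opposite strand. Sod2 was at 124 normalized CPM against 101 ± 0.427 (SD, n = 2) in LSKO, a log2 fold change of 0.30 ± 0.09 (SE) with adjusted p = 0.0314. Among genes with no opposite-strand overlap the value was 0.23 with adjusted p = 0.280. Sod1 had 0.35 ± 0.11 (SE) with adjusted p = 0.0391, and 0.28 with adjusted p = 0.283 among those genes. After the length and GC correction Sod1 reached 0.60 and was called. Cat had a 95% interval from -0.17 to 0.22 and Ccs one from -0.39 to 0.11. At an unadjusted p under 0.05 Sod1 and Sod2 passed, and DESeq2 called none.

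**Figure D3:**
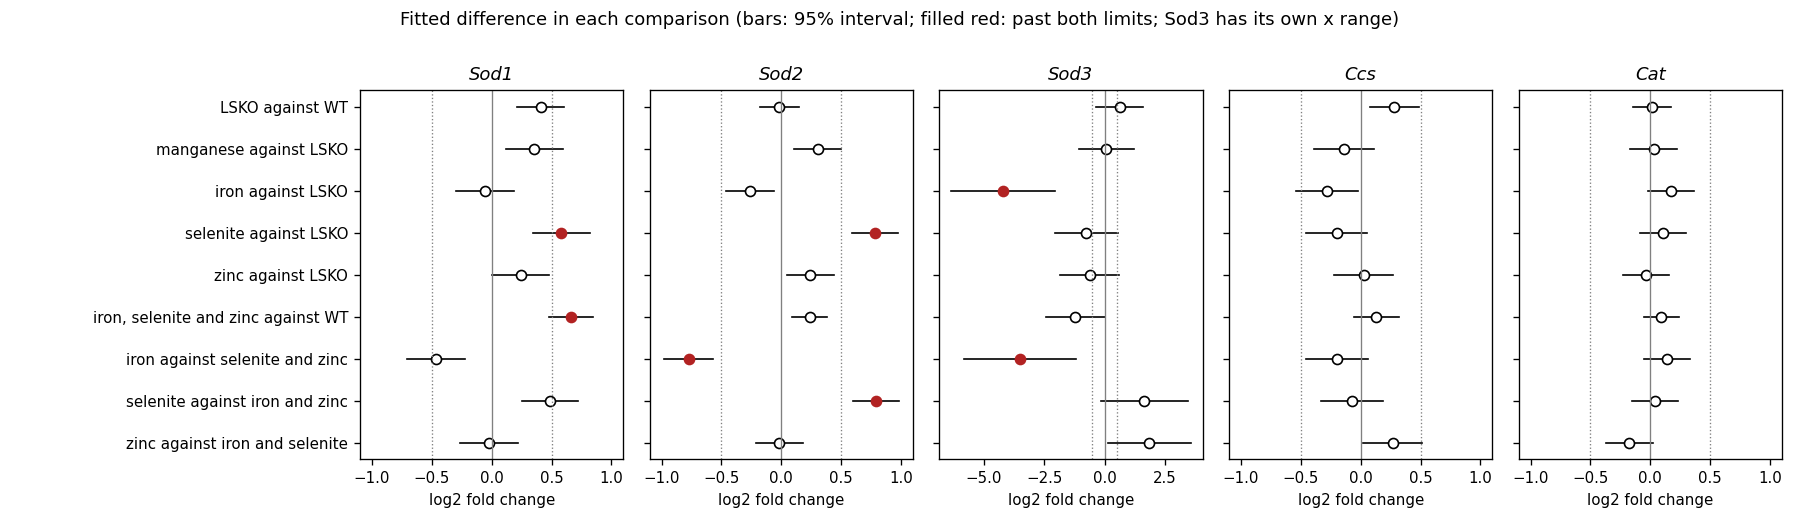
Fitted log2 fold change (x axis, with its own range for Sod3) of each gene in the 9 comparisons (y axis), with 95% intervals. Filled points passed both limits, as for Sod2 with selenite at 0.78, and open points did not. All points of Ccs and Cat are open.

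A further uncertainty was found for Sod1. The processed pseudogene Gm8566 on chromosome 6 matches the Sod1 transcript over 465 bases at 97.8% identity. Its reads came to 7.78, 8.14 and 7.84% of those of Sod1 in LSKO replicates 1 and 2 and the manganese library, and to 2.22 to 2.96% in WT and with iron, selenite or zinc. The share thus split the libraries as their alignment summaries do. With the reads of Gm8566 added to Sod1, the difference between LSKO and WT was 0.48 and that between selenite and LSKO 0.51, with no change in any call. No such copy was found for the other 4 genes at the limits used, 80% identity over at least 50% of the principal transcript. Shorter copies were not looked for, which matters most for the long transcripts of Sod2 and Sod3.

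Genes around the 5 were read from lists by role, with results given as genes called of genes tested. They are to be read against the share of all genes called, which was 17.6% with selenite, 8.70% with iron and 4.45% with zinc against untreated LSKO cells and 10.4% in LSKO against WT. With the length and GC correction, the share with selenite was 8.00%. Copper handling is the supply line of CCS and SOD1. Against untreated LSKO cells, selenite gave 3 of 15 copper genes higher and 1 lower, with a list median of 0.13 on the log2 scale (median of all genes -0.01). Steap4, a metalloreductase, was higher by 1.08 and Atox1, the chaperone that hands copper to the secretory pathway, by 0.78. With the correction 4 were higher and 1 lower. With iron none was higher and 3 were lower, among them Steap4 at -1.57 and Slc31a2, a copper transporter, at -0.74. Ccs itself was called in neither. With zinc, none of the 15 was called.

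Manganese handling and manganese enzymes gave 1 higher and 1 lower of 10 with selenite. Arg2, the mitochondrial arginase, was at 1.45, and Atp13a1, an ATPase of the endoplasmic reticulum, at -0.68. With the length and GC correction Arg2 was at 1.00 and still called, and Atp13a1 was at -0.21 and not called. Iron also had Arg2 higher, at 1.53, the only call of that list in the comparison. In LSKO against WT, Arg1, the arginase of the urea cycle, was higher by 3.06 and Slc39a8 lower by 1.52 on the log2 scale. With manganese, none of the 5 listed genes free of opposite-strand overlap was called. Heme genes gave 1 of 14 higher with iron, namely Hmox1, heme oxygenase, at 1.30. With selenite, Blvrb, a biliverdin reductase, was higher at 0.81 and Cpox, a step of heme synthesis, lower at -0.55.

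Genes of peroxisome assembly and import, some of whose products bring catalase into the organelle, numbered 19. Of these, 1 was lower with selenite (Pex6 at -0.79), none with iron or zinc, and 1 was higher in LSKO against WT (Pex11a at 0.60). Pex6 was at -0.23 and not called after the length and GC correction. Of 15 oxidases that form peroxide, 4 were higher and 1 was lower in LSKO against WT, where Cat had 0.01 on the log2 scale. Uox, urate oxidase, was higher by 2.63 and Aox3, an aldehyde oxidase, by 1.60, and in the same comparison 7 of 8 hepatocyte markers were higher, Cps1 by 2.69. With selenite, Uox was higher at 0.64 and Xdh, xanthine dehydrogenase, lower at -0.53, and neither was called with the length and GC correction, at 0.40 and -0.25.

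Of 9 NADPH oxidase genes, whose products make superoxide, 3 were higher with selenite and none lower (median 0.75), and 2 were higher with the length and GC correction (median 0.59). Zinc gave 1 higher, Cybb at 0.80, and 1 lower, and iron gave none higher and 1 lower. With manganese Cybb was called higher among genes with no opposite-strand overlap, at 1.09. Rac2 at 2.24 and Cybb at 1.60 with selenite are subunits of the phagocyte enzyme. The macrophage markers Adgre1 and Marco were higher by 1.76 and 1.73 with selenite, by 1.34 and 1.61 with zinc and by 1.52 and 1.78 with manganese. With selenite the other 5 of the 7 macrophage markers were not called, with values from -0.52 (Clec4f) to 0.32 (Cd5l). With zinc the other 5 were not called either, and Clec4f was at 8.97 CPM against 12.1 and 20.6 in untreated LSKO cells. With manganese Cd68 was also called higher, at 0.96, and Csf1r, which has opposite-strand overlap, was called lower at -0.73. The summed level of all 7 was 312 CPM with selenite, 279 with zinc and 468 with manganese, against 244 and 276 in untreated LSKO cells. The part of such cells in this result was not tested. Among 12 other enzymes that remove peroxide, 5 were higher with selenite and none lower (median 0.53), while iron, zinc and manganese gave none. Gpx3 and Gpx1, both selenium-dependent glutathione peroxidases, were higher by 1.28 and 1.24. With the length and GC correction 2 of the 12 were called, again Gpx1 at 1.11 and Gpx3 at 1.26. Sod2, which is no selenoprotein, was called beside them.

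Of 14 regulators linked to these genes, 3 were lower with selenite and none higher, where 9.67% of all genes were lower, and 0 were called with the length and GC correction. Foxo1 was at -0.80 and Foxo3 at -0.78. Both are forkhead factors known to act on Sod2 and Cat. With the correction they were at -0.44 and -0.30. With iron, Foxo3 was higher at 0.60 and Nfe2l2, the factor that binds antioxidant response elements, lower at -0.56. With manganese, Nfe2l2 was lower at -0.73 among genes with no opposite-strand overlap.

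**Figure D4:**
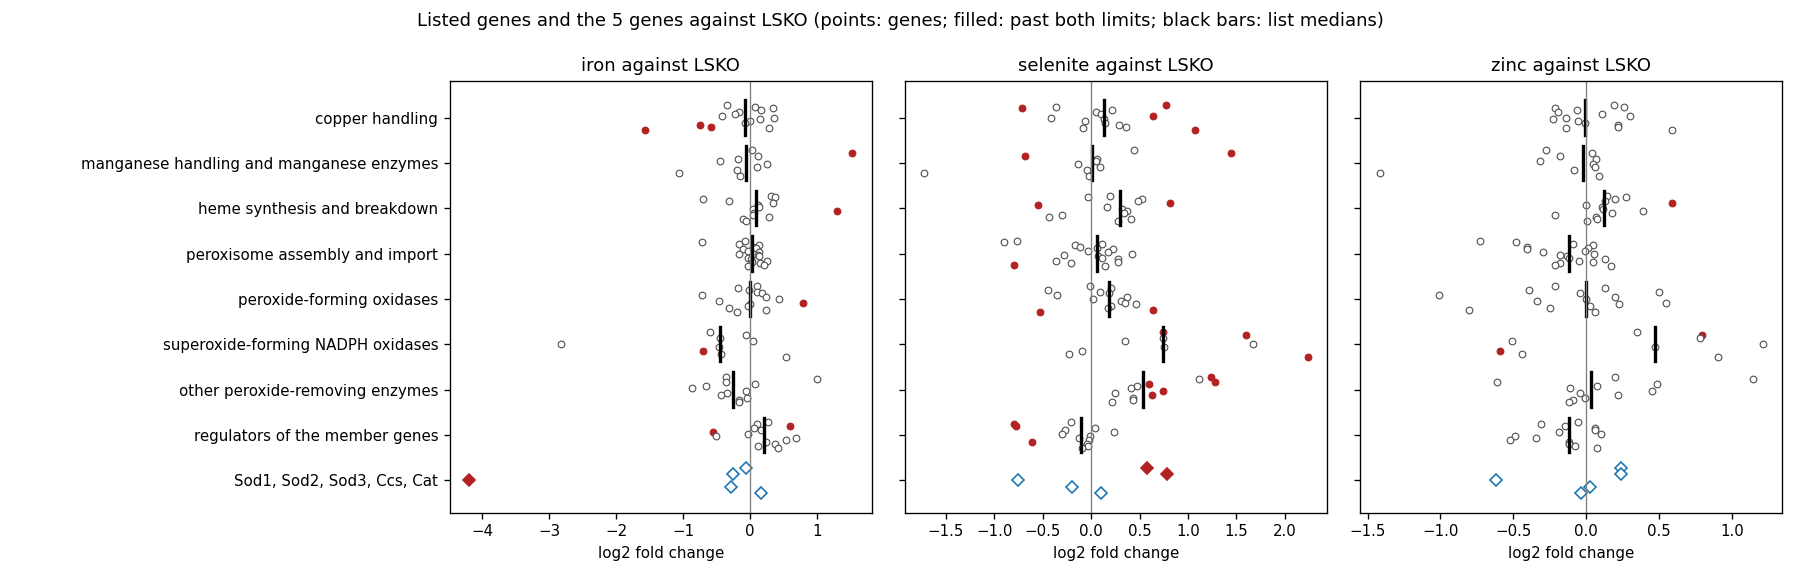
Log2 fold change (x axis) of the listed genes and of the 5 genes (diamonds) with iron, selenite and zinc against untreated LSKO cells, by list (y axis). Filled points passed both limits and black bars are list medians, which with selenite are 0.75 for NADPH oxidases and 0.53 for other peroxide-removing enzymes. Each panel has its own x range.

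The 5 genes did not share 1 pattern over the libraries. Pearson's r of log2 CPM over the 8 libraries, which share depth, composition and alignment kind and are given as a description, was 0.76 for Sod1 and Sod2, 0.42 for Sod1 and its chaperone Ccs, 0.01 for Sod2 and Cat and -0.77 for Sod3 and Cat. The last 2 rest on the iron library, where Cat was highest, Sod2 lowest and Sod3 had 1 read, for over the other 7 libraries r was 0.83 for Sod2 and Cat and -0.10 for Sod3 and Cat. Among 8532 genes of at least 10 mean CPM, those most like Sod1 were Psma1, a proteasome subunit (r = 0.996), Serpina3k (r = 0.991) and Selenok (r = 0.990). Those most like Sod2 were Cox8a, a subunit of cytochrome c oxidase (r = 0.995), Rpsa, a ribosomal protein (r = 0.993), and Polr1d (r = 0.991). For Cat they were D16Ertd472e (r = 0.977), Zfp830 (r = 0.968) and Tomm70a, a mitochondrial import receptor (r = 0.942), for Ccs Ank3 (r = 0.949), Pik3ap1 (r = 0.944) and Spsb4 (r = 0.934), and for Sod3, again with its single read in the iron library, Pigg (r = 0.958), Hmgxb4 (r = 0.936) and Fcho2 (r = 0.933).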

How the data were processed

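The authors aligned reads with HISAT2 to GRCm38 and counted them per gene with HTSeq, with Trimmomatic and DESeq2 also named in the submitters' processing notes, and deposited raw counts, 1 table per library. The strand setting is not given in the sources used here. The 5 members and all gene lists were chosen with earlier results of these data known. Counts were fitted with edgeR 4.0.16 (R 4.3.3) over all 8 libraries in a model of 6 groups, with TMM factors, for 15468 genes with at least 80 reads in sum. Groups with 1 library borrow their spread from WT and LSKO (2 residual degrees of freedom). Rows of unassigned reads stayed out of library sizes. Calls needed more than 0.5 on the log2 scale and p below 0.05 after Benjamini-Hochberg adjustment. Lengths, GC content and overlaps came from GENCODE M21, and 4 of 146 listed genes were matched by an older symbol. Named are the 5 members, up to 2 called genes per list with the largest change, or the lowest p where none was called, for the comparisons described, the 3 genes most like each member (established symbols) and Slc39a8. The pseudogene alternative, a fit without the manganese library and correlations without the iron library were added after the data were seen. Scripts were tested on simulated data. DESeq2 1.42.0, other scalings, filters, library sets and a length and GC correction were alternatives.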

Additional observations from a re-analysis of the deposited data

How the results depend on the processing

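In 16 settings, 777 of 840 values and call counts kept direction and side of limits, or number. The call of Sod2 for selenite against LSKO held in all 16, and its other two calls in the 15 settings run for them. Counts of the 5 genes called moved as follows. DESeq2 called 0 for iron against LSKO and 1 for iron against selenite and zinc, both times losing Sod3. The length and GC correction called 1 for manganese against LSKO (Sod1), 1 for selenite against LSKO and 0 for iron, selenite and zinc against WT, as did the correction with the replicate block, which also left 1 for iron against selenite and zinc (Sod3 lost, adjusted p = 0.0514). With no minimum fold change the counts were 1 for LSKO against WT and 2 each for manganese against LSKO, for iron, selenite and zinc against WT and for selenite against iron and zinc. Leaving out 1 replicate gave 0 to 1 for LSKO against WT and 1 to 2 for selenite against LSKO. In both, LSKO replicate 1 moved the count. The cause of the DESeq2 differences was not tested.

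The replicate numbers of WT and LSKO are only numbers in the labels, and the differences between replicates 1 and 2 of both groups correlated at -0.07. With the replicate block the 5 genes kept their counts (0 for LSKO against WT, 1 for iron and 2 for selenite against LSKO), while all genes called for zinc against iron and selenite went from 81 to 277.

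Values that crossed 0 were small, and none was a call. For zinc against iron and selenite, Sod2 was at 0.00035 with DESeq2, 0.00034 with median-ratio size factors and 0.0065 without the low-count filter, where Sod1 was at 0.0011, and without 1 replicate Sod1 was at 0.012 and Sod2 at 0.017. For LSKO against WT, Cat was at -0.0082 without the filter and at -0.0022 with filterByExpr. With the length and GC correction, Sod2 was at 0.047 and Cat at -0.012 in LSKO against WT, Sod1 at 0.050 with iron, Ccs at -0.038 with zinc and at -0.018 in the 3 metals against WT, and Cat at -0.029 in selenite against iron and zinc. With the replicate block added, these were 0.047, -0.012, 0.051, -0.038, -0.019 and -0.029. Without 1 replicate, Sod2 ran from -0.020 to 0.030 in LSKO against WT, Sod1 from -0.18 to 0.049 in iron against LSKO and Ccs from -0.041 to 0.10 in zinc against LSKO. Among genes with no opposite-strand overlap, Cat was at -0.048 with manganese.

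Over all genes, DESeq2 called 1039 for LSKO against WT, 738, 1642 and 413 for iron, selenite and zinc against LSKO, 1395 for the 3 metals against WT, and 1686 and 1463 for iron and selenite against the other two, against 1615, 1345, 2717, 688, 2173, 2801 and 2456. The length and GC correction called 1237 for selenite against LSKO, 1616 for iron and 960 for selenite against the other two (with the replicate block, 1148, 1523 and 863). With no minimum fold change 4132, 4169 and 3715 were called for selenite against LSKO, the 3 metals against WT and selenite against iron and zinc. Without the low-count filter zinc gave 1164 against LSKO and 496 against the other two. Of 2654 genes called with manganese 12.2% were higher, and of the 136 with no opposite-strand overlap 54.4% were. That set, with fewer genes tested, also gave 1808, 1519 and 49 for iron, selenite and zinc against the other two. LSKO against WT gave 735 and 778 without WT replicates 1 and 2 and 1014 without LSKO replicate 2, the 3 metals against WT 1022 without WT replicate 2, and zinc against the other two 0 without either WT replicate and 443 and 445 without LSKO replicates 1 and 2. With 1 library per metal, no metal effect has a replicate of its own, and Sod3, with 1 to 26 reads, could show only large differences.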
